A study of Mus musculus with 12 samples.

Results

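T cells, natural killer (NK) cells and natural killer T (NKT) cells were followed in the injured mouse cecum through 10 genes, namely Cd3e, Cd4, Cd8a, Zap70, Klrb1c, Ncr1, Nkg7, Gzmb, Prf1 and Zbtb16. The genes were chosen by name from 37074 genes on the array, with no threshold on their values but with earlier results of these data known. They were read with 18 of the 56605 probes. RNA came from cecum tissue of 12 C57BL/6 mice and was hybridised in 1 colour to the Agilent SurePrint G3 Mouse GE v2 array, with 3 mice in each of 4 groups. The study's methods do not say whether the whole organ or the injured part was taken for the arrays. Mice of 3 groups received cauterization of the cecum with bipolar forceps under pentobarbital anesthesia and were sampled 3, 12 or 72 h later. The remaining group had a sham operation and, per the study's methods, was sampled at 0 h. Sham therefore differs from the other groups both in injury and in time since surgery, and these cannot be told apart. The age of the mice is not given in the sources used here. The labels give the mice as male, but Xist was well above background on 12 arrays and Ddx3y, a Y-linked gene, on 0, so the label of sex is not borne out by these arrays.

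T cells recognise antigen through the T cell receptor, whose signal is passed on by the CD3 chains and the kinase ZAP70. CD4 and CD8 mark helper and cytotoxic T cells. NK cells kill without such a receptor and carry surface molecules such as NK1.1 (Klrb1c) and NKp46 (Ncr1), while NKT cells need the transcription factor PLZF (Zbtb16). Cytotoxic T and NK cells store perforin (Prf1) and granzymes such as granzyme B (Gzmb) in granules and release them onto target cells. The cecum of the mouse holds T and B cells in lymphoid follicles and further T cells within its epithelium and lamina propria. In whole tissue, fewer cells of a type and less RNA per cell cannot be told apart.

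On each array 60.2% to 65.2% of the probes passed the scanner's test of being well above background, and saturated spots numbered 0. The correlation of replicate arrays across probes lay between 0.985 and 0.992. All 10 epithelial and all 7 smooth muscle markers were well above background on all 12 arrays, as were the leukocyte gene Ptprc and 9 of 11 B cell markers. Slide 1 carried all sham and 3 h arrays and 2 of the 12 h arrays, and slide 2 carried the other 12 h array (replicate 3) and all 72 h arrays. A level is given below as log2 of the processed signal minus the log2 of the 75th percentile of its own array, so 0 is the signal of a fairly bright probe. A difference is given on the same log2 scale. A gene counts as called where a limma fit over all 12 arrays gave more than a 2-fold change and a Benjamini-Hochberg adjusted p below 0.05. Where a gene had several probes, the brightest represents it.

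Gzmb and Prf1 encode proteins that work together in granules, and their sequences are shown because Gzmb was called at each time and Prf1 at none. Each had 1 probe. The Gzmb probe lies at chr14:56877916-56877975 on the minus strand and the Prf1 probe at chr10:60766941-60767000 on the plus strand (mm9, from the array files). The first 30 of the 60 bases of each probe are as follows.
Gzmb probe: ccccgagaatgttatctaatgctagtcatc
Prf1 probe: actgcctcagccctgcaatgcccgaaagct
The 250 bases before the start of each gene were taken from RefSeq (GRCm38.p6), at chr14:56262335-56262584 on the minus strand for Gzmb and chr10:61297586-61297835 on the plus strand for Prf1. Capitals mark matches, on either strand, to TGANTCA (AP-1) and TGTGGT (Runx), and the motifs TCACACC (T-box) and TTCNNNGAA (STAT) were also searched.
Gzmb promoter: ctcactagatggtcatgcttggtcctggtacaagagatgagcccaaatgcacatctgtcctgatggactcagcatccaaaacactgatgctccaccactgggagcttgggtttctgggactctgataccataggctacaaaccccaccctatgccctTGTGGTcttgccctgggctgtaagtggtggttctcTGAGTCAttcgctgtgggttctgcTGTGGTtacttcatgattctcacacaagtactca
Prf1 promoter: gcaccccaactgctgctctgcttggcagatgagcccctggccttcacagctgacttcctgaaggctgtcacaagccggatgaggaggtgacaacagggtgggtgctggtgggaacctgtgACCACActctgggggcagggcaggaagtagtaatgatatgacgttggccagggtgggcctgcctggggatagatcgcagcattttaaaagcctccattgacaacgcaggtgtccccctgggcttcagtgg
The Gzmb window held 1 AP-1 match, starting 58 bases before the gene, and 2 Runx matches, starting 93 and 34 bases before it. The Prf1 window held 1 Runx match, starting 130 bases before the gene, and no match to the other 3 motifs. No pair of these matches overlapped. Of 32851 RefSeq promoter windows of this length, 6.75% held TGANTCA, 14% held TGTGGT, 3.33% held TCACACC and 7.02% held TTCNNNGAA. Among the 10 genes, 8 had a promoter in this table, and Cd4 and Zbtb16 did not. The AP-1 letters were found in the Gzmb window and in none of the windows of Zap70, Cd8a, Klrb1c, Ncr1, Nkg7, Cd3e and Prf1. This is 1 gene of 8, where 6.75% of all windows held these letters. The Runx letters were found for Gzmb, Prf1, Klrb1c, Ncr1 and Nkg7 and in 1 window of Zap70, but not for Cd8a or Cd3e. The T-box and STAT letters were found for Nkg7 alone. These are matches of letters, and no binding was measured.

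Among the 10 genes, Gzmb was the only one called at any time point. It was higher at 3, 12 and 72 h, so that 1 of 10 genes was called at each time. Of all 37074 genes, 7.37% were called at 3 h (3.26% higher and 4.11% lower), 9.06% at 12 h (4.1% higher and 4.96% lower) and 8.85% at 72 h (4.55% higher and 4.3% lower), so a count of 1 in 10 lies near the background. With no fold change threshold, 2 of the 10 genes passed at 3 h (Nkg7 and Gzmb), 1 at 12 h (Gzmb) and 2 at 72 h (Klrb1c and Gzmb), where 18.7%, 21.2% and 20.7% of all genes passed. Between 3 and 12 h, 0 of the 10 genes were called, against 3.46% of all genes, and 0 passed without the fold change threshold, against 8.97%. Between 12 and 72 h, 0 were called, against 7.52% of all genes, and 1 (Prf1) passed without the fold change threshold, against 18.5%. The median log2 difference of the 10 genes from sham was -0.20, 0.095 and -0.30 at the 3 times in order, and over all genes it was 0.081, -0.0077 and -0.14.

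**Figure D1:**
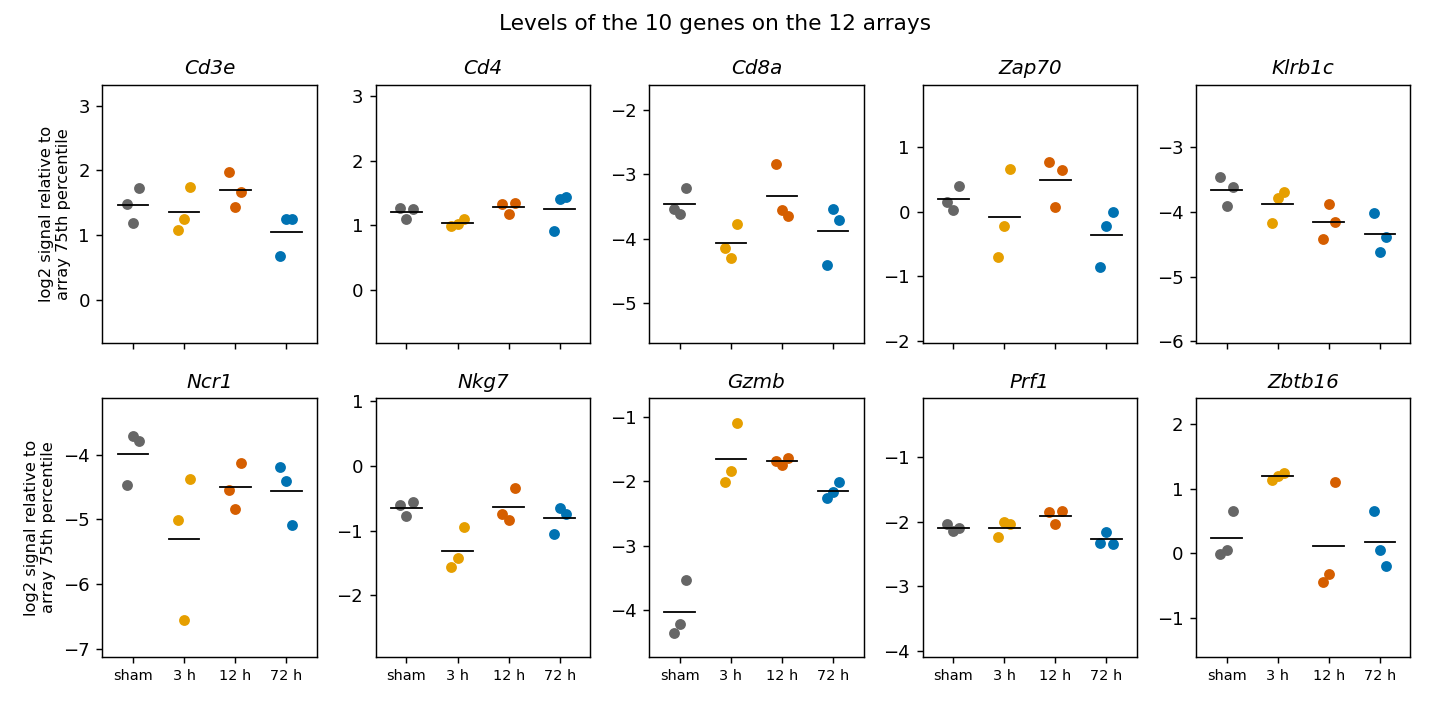
Each panel plots 1 gene, with its level on each of 12 arrays (y axis, log2 signal relative to the array's 75th percentile) by group (x axis); points are arrays, black lines are group means, and every y axis spans at least 4 log2 units. Gzmb lay between -4.34 and -3.53 on the sham arrays and between -2.26 and -1.09 on the other 9, while the levels of Prf1 lay between -2.34 and -1.84 on all 12.

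Gzmb encodes granzyme B, a serine protease that triggers death of the target cell. Its level on the sham arrays was -4.34, -4.21 and -3.53. At 3 h it was -2.01, -1.85 and -1.09. All 3 arrays at 3 h thus lay above all sham arrays, and so did those of the later times. At 12 h the level was -1.69, -1.75 and -1.64, the narrowest spread of the 4 groups. At 72 h it was -2.26, -2.17 and -2.01, below every array at 12 h and still above every sham array. Gzmb was 5.20-fold higher at 3 h than in sham (log2 difference 2.38, SE 0.256, adjusted p = 0.000294). The fold was 5.05 at 12 h (log2 difference 2.34, SE 0.256, adjusted p = 0.000216). At 72 h it was 3.69 (log2 difference 1.88, SE 0.256, adjusted p = 0.000969). From 12 to 72 h the difference was -0.45 (adjusted p = 0.262), which does not pass. The Gzmb probe was dim but well above background on all 12 arrays, with a processed signal of 9.92 to 16.8 in sham and at most 89.1 on any array. With slide as a block, the 72 h difference was 1.81 with an adjusted p of 0.085 and was no longer called. Slide and the 72 h group can be separated only through 1 array. The call was also lost at all 3 times with a background correction that adds 50 to every signal, and with the paired t-test after adjustment.

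Prf1 encodes perforin, which forms pores in the membrane of the target cell. Its level was -2.04, -2.14 and -2.10 in sham, -2.24, -2.00 and -2.04 at 3 h, -1.84, -2.04 and -1.84 at 12 h, ending with -2.32, -2.15 and -2.34 at 72 h. The groups lay close together, and the 3 h arrays stood on both sides of the sham arrays. The log2 difference from sham was -0.0028 at 3 h (95% interval -0.25 to 0.24), then 0.19 at 12 h (-0.058 to 0.43) and -0.18 at 72 h (-0.42 to 0.064), so that a 2-fold change lay outside each interval. All 3 arrays at 72 h lay below all arrays at 12 h, with a difference of -0.37 (SE 0.110, adjusted p = 0.0448), under the fold change threshold.

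Nkg7, a membrane protein of cytotoxic granules, did not follow Gzmb either. Its level was -0.61, -0.77 and -0.55 in sham and -1.56, -1.43 and -0.94 at 3 h. All 3 h arrays lay below all sham arrays, with a difference of -0.67 (SE 0.192, adjusted p = 0.0369) that was under 2-fold. At 12 h the level was -0.74, -0.83 and -0.34, and at 72 h it was -1.05, -0.65 and -0.74, both overlapping sham. The differences from sham were 0.0069 at 12 h (adjusted p = 0.989) and -0.17 at 72 h (adjusted p = 0.586).

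**Figure D2:**
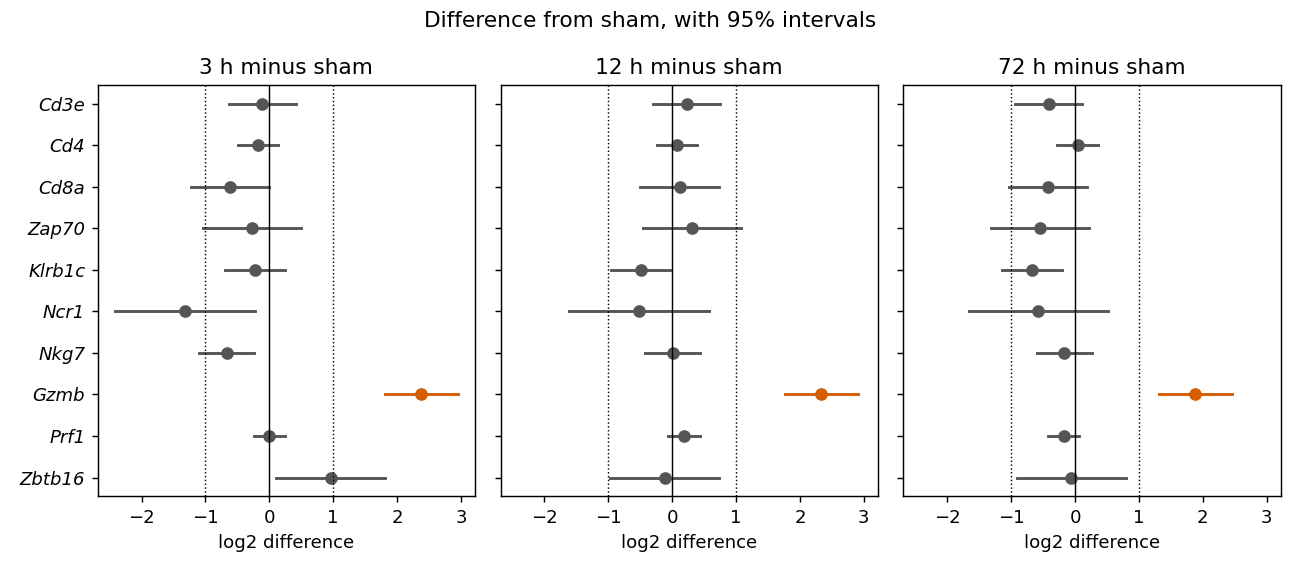
Each panel plots the log2 difference from sham (x axis) of the 10 genes (y axis) at 1 time point; points are limma estimates, bars are 95% intervals, dotted lines mark a 2-fold change, and orange marks a called gene. Gzmb, at 2.38, 2.34 and 1.88, is the only gene whose interval lies wholly beyond 2-fold.

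The rise of Gzmb relative to each of the other 9 genes was compared within arrays, a comparison chosen after the values had been seen. The difference between Gzmb and the other gene on the same array was larger at 3, 12 and 72 h than in sham for all 9 genes, without overlap of the arrays. Relative to Prf1, Gzmb gained 2.38, 2.15 and 2.06 on the log2 scale. Relative to Cd3e, it gained 2.49, 2.11 and 2.29. The smallest gain was that relative to Zbtb16 at 3 h, at 1.42. All of these comparisons reuse the same Gzmb values, already seen to be higher at each time, so they are not separate results. Each of the 27 comparisons had a two-sided exact permutation p of 0.1, which is the smallest that 3 arrays against 3 can give, so none can pass a threshold of 0.05.

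Among the T cell genes, none was called in any comparison. Cd3e encodes a chain of the CD3 complex and marks T cells as a whole. Its brighter probe was at 1.48, 1.19 and 1.72 in sham, 1.07, 1.25 and 1.74 at 3 h, 1.97, 1.43 and 1.67 at 12 h, ending with 0.67, 1.25 and 1.24 at 72 h. The groups overlapped sham at each time, and replicate 3 at 3 h was as high as the highest sham array. The differences from sham were -0.11 at 3 h (95% interval -0.63 to 0.42), 0.23 at 12 h (-0.30 to 0.75) and -0.41 at 72 h (-0.94 to 0.11). A 2-fold change lay outside each of these intervals. From 12 to 72 h all arrays were lower (difference -0.64, adjusted p = 0.0933). The dimmer probe gave -0.11, 0.33 and 0.17 against sham, so the probes differed in sign at 72 h.

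Cd4, the coreceptor of helper T cells, was the steadiest of the 4 by its brightest probe, though not by its dimmer probes. Its brightest probe was at 1.27, 1.10 and 1.25 in sham, 0.99, 1.01 and 1.09 at 3 h, 1.32, 1.18 and 1.35 at 12 h, ending with 0.91, 1.40 and 1.43 at 72 h. The 3 h arrays lay just below the sham arrays, and the later groups overlapped them. The differences from sham were -0.18, 0.074 and 0.041 (adjusted p = 0.405, 0.825 and 0.86). Of its other 2 probes, one was well above background on 10 arrays, 1 of them at 3 h. It gave -0.74, -0.20 and -0.14 against sham (adjusted p = 0.0544, 0.65 and 0.7). The other was well above background on 2 arrays and gave -1.0 at 3 h (adjusted p = 0.394). On the latter, replicate 1 at 12 h stood alone at -2.38 while the other 11 arrays lay between -6.89 and -4.93.

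Cd8a, the coreceptor of cytotoxic T cells, was dim but well above background on 12 arrays with its brighter probe. Its level was -3.55, -3.62 and -3.21 in sham and -4.15, -4.30 and -3.77 at 3 h. The 3 h arrays were all lower than the sham arrays, with a difference of -0.61 (SE 0.275, adjusted p = 0.147) that did not pass. At 12 h the level was -2.84, -3.55 and -3.64 and at 72 h it was -4.40, -3.54 and -3.71, both overlapping sham (differences 0.12 and -0.42, adjusted p = 0.866 and 0.328). The second probe was above background on 3 arrays and gave -1.02, -0.17 and -0.35 against sham (adjusted p = 0.146, 0.889 and 0.623).

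Zap70, the kinase that docks on the activated receptor, varied most of the 4 T cell genes between replicates at 3 h (SD 0.694), but not in the other groups. Its brighter probe was at 0.15, 0.026 and 0.40 in sham, -0.70, -0.22 and 0.67 at 3 h, 0.78, 0.072 and 0.65 at 12 h, ending with -0.85, -0.21 and 0.00080 at 72 h. At 3 h the lowest and highest arrays stood on either side of all sham arrays. At 72 h all 3 arrays lay below sham. The differences from sham were -0.28, 0.31 and -0.54 (adjusted p = 0.6, 0.62 and 0.313), and the second probe gave -0.25, 0.35 and -0.47.

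The NK cell genes were dim, and none was called. Klrb1c encodes NK1.1, the surface marker by which NK and NKT cells of this strain are identified. Its brightest probe was at -3.45, -3.91 and -3.61 in sham, -4.17, -3.78 and -3.70 at 3 h, -4.42, -3.87 and -4.16 at 12 h, ending with -4.01, -4.62 and -4.38 at 72 h. The group means were lower at each time (differences -0.23, -0.49 and -0.68). At 72 h all arrays lay below all sham arrays (SE 0.210, adjusted p = 0.0467), under 2-fold, and with a replicate block the adjusted p was 0.0847. Its other 2 probes were above background on 6 and 0 arrays.

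Ncr1 encodes NKp46, an activating receptor of NK cells and some innate lymphoid cells. Its only probe was above background on 3 sham arrays and on 1, 3 and 2 arrays at the later times in order. The level was -4.47, -3.71 and -3.79 in sham and -5.02, -6.55 and -4.37 at 3 h, where replicate 3 overlapped sham. It was -4.54, -4.84 and -4.14 at 12 h and -4.19, -4.40 and -5.09 at 72 h. The difference at 3 h was -1.32 (SE 0.491, adjusted p = 0.0914), which did not pass. Without replicate 3 at 3 h it was -1.79 with an adjusted p of 0.0331 and was called. The later differences were -0.52 and -0.57 (adjusted p = 0.539 and 0.465).

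Zbtb16 encodes PLZF, which directs the development of NKT cells and is also made outside lymphocytes. Its brighter probe was at -0.0015, 0.049 and 0.65 in sham and at 1.14, 1.20 and 1.24 at 3 h. All 3 h arrays lay above all sham arrays, with a difference of 0.96 (SE 0.382, adjusted p = 0.111) that did not pass. At 12 h the level was -0.44, -0.31 and 1.10, with replicate 3 far above the other 2. That array is the 12 h array on slide 2. At 72 h the level was 0.66, 0.060 and -0.19. From 3 to 12 h the difference was -1.07 (adjusted p = 0.119). Without replicate 3 at 12 h it was -1.57 (adjusted p = 0.0155) and was called. With slide as a block and within slide 1 the difference was the same and was also called. Both settings take that array out of this comparison, so these calls rest on leaving out 1 array. The dimmer probe gave 0.36, -0.48 and -0.68 against sham and was above background on 7 arrays, 0 of them at 72 h.

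Arrays that did not overlap sham were found for 5 of the 10 genes at 3 h (Gzmb and Zbtb16 higher, Cd4, Cd8a and Nkg7 lower), for 2 at 12 h (Gzmb and Prf1 higher) and for 4 at 72 h (Gzmb higher, Zap70, Klrb1c and Prf1 lower). Among all genes without a missing value, 46.6%, 36.2% and 37.5% did not overlap.

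Other genes of the same cells were read from lists. The counts of each list below stand beside the shares of all genes called. These were 3.26%, 4.1% and 4.55% higher and 4.11%, 4.96% and 4.3% lower at 3, 12 and 72 h. Of the 23 genes of the T cell receptor complex and its proximal signalling, those called higher numbered 1, 2 and 2 at the 3 times in order, and those called lower 2, 0 and 0. The median differences from sham were -0.17, 0.51 and -0.42. The called members went in opposite directions at 3 h. Lcp2 (SLP-76, an adaptor of T cells, NK cells and myeloid cells) rose 2.05-fold, 6.37-fold and 4.30-fold at the 3 times (adjusted p = 0.0299, 0.000182 and 0.000921). Fyb, an adaptor that binds SLP-76 and is likewise made in myeloid cells, rose 5.50-fold at 12 h and 4.26-fold at 72 h (adjusted p = 0.00057 and 0.00178). Cd5, an inhibitory receptor of T cells and some B cells, was 2.80-fold lower at 3 h (adjusted p = 0.0489), and Sit1, a lymphocyte adaptor, 2.05-fold lower (adjusted p = 0.0162). The counts at 3 h turned on single arrays. Without replicate 3 at 3 h, 7 of the 23 genes were called lower and 0 higher, and without replicate 1 at 3 h, 0 were called lower and 4 higher. The lower count was also 0 without sham replicate 3 or replicate 2 at 3 h, and 1 without sham replicate 1 or 2, replicate 1 or 3 at 12 h, or any array at 72 h. The higher count at 3 h was 0 without sham replicate 1 or 2 or replicate 2 at 3 h. Without replicate 2 at 72 h, 1 gene was called lower at 72 h. With slide as a block, 0 were called higher at 72 h and 1 was called lower at 3 h.

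Of the 18 genes of T cell lineage and homing, 2 were called higher and 1 lower at 3 h, 3 higher at 12 h and 2 higher at 72 h, with medians of 0.10, 0.49 and 0.17. Klf2, a factor of quiescent T cells that endothelium and myeloid cells also make, rose 4.18-fold at 12 h and 2.91-fold at 72 h (adjusted p = 0.000347 and 0.00224). Ccr7, which guides naive T cells and dendritic cells to lymph nodes, rose 2.10-fold at 3 h and 3.24-fold at 12 h (adjusted p = 0.0382 and 0.00373). Bcl11b, a factor required for T cell identity, was 2.05-fold lower at 3 h (adjusted p = 0.00309). The number called higher at 3 h was 0 without sham replicate 2 or without replicate 3 at 3 h, 1 without sham replicate 1, replicate 2 at 3 h or replicate 3 at 12 h, and 4 without replicate 1 at 3 h. The number called lower at 3 h was 0 without replicate 2 at 3 h, and 2 without sham replicate 3, replicate 3 at 3 h or replicate 1 or 2 at 12 h. With slide as a block, 1 gene of this list was called higher at 3 h and 1 at 72 h, and within slide 1, 0 were called higher at 3 h.

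Of the 35 measured genes of NK and NKT cell receptors and regulators, those called higher numbered 1, 3 and 4 at the 3 times in order, and those called lower 1, 1 and 3, with medians of 0.096, 0.20 and 0.057. Il18rap, a chain of the IL-18 receptor of NK and T cells and also of neutrophils, was not well above background on any sham array. It was at least 3.25-fold, 8.13-fold and 3.95-fold higher at the 3 times in order. These lower bounds were not tested. The limma fit, which used the sham signals as measured, gave adjusted p = 4e-04, 2.36e-05 and 0.000198. Tyrobp (DAP12), an adaptor of NK receptors and of myeloid cells, rose 6.39-fold at 12 h and 8.17-fold at 72 h (adjusted p = 8.55e-06 and 6.92e-06). Klra9, a Ly49 receptor from a family of near-identical genes whose probes may not tell members apart, rose 4.08-fold at 12 h and 2.85-fold at 72 h (adjusted p = 0.000429 and 0.00281). Cd1d1, which presents lipids to NKT cells, was 2.50-fold higher at 72 h (adjusted p = 0.0018).

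Genes that were lower in this list included Eomes, a T-box factor of NK cells, which was 2.07-fold lower at 12 h and 2.03-fold lower at 72 h (adjusted p = 0.0215 and 0.0255). Klrb1f, a relative of Klrb1c, was 3.29-fold lower at 3 h (adjusted p = 0.0121), where its probe was well above background on 1 of 3 arrays. Slamf1 and Slamf7, receptors shared by several lymphocytes, were 3.91-fold and 2.08-fold lower at 72 h (adjusted p = 0.0385 and 0.0196). The Slamf1 probe was well above background on 1 of 3 arrays at 72 h, so that its fold, like that of Klrb1f, rests largely on signals near background. At 72 h the lower calls fell from 3 to 0 without sham replicate 3, with slide as a block and with quantile normalization, and to 1 without sham replicate 1 or 2 or replicate 1 or 2 at 72 h. At 12 h they fell to 0 without sham replicate 2, without sham replicate 3 or without replicate 3 at 12 h, and likewise with slide as a block, within slide 1, with quantile normalization and with the mean of all probes. At 3 h, 2 were called lower without replicate 1 or 3 at 3 h or replicate 2 at 72 h. The higher calls were 2 without sham replicate 3 and 3 without replicate 1 at 3 h, and at 12 h they were 5 without replicate 2 at 12 h. At 72 h the higher calls fell from 4 to 2 with slide as a block. Of the 35 genes, 4 (Cd160, Klra4, Klrc1 and S1pr5) were not well above background on any array.

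Of 21 other cytotoxic granule and effector genes, 2 were called higher at 3 h, 3 at 12 h and 4 at 72 h, and 0 lower, with medians of 0.24, 0.074 and -0.039. Srgn, the serglycin core that packs granules of cytotoxic cells, mast cells and neutrophils, rose 6.32-fold, 19.3-fold and 8.31-fold at 3, 12 and 72 h (adjusted p = 0.000453, 2.25e-05 and 0.000193). Stx11, a fusion protein of granule release that myeloid cells also make, rose 6.89-fold, 14.4-fold and 4.99-fold (adjusted p = 0.000204, 2.25e-05 and 0.000516). Gzma, granzyme A, was at -1.15, -1.31 and -0.89 in sham, -0.46, -0.37 and 0.34 at 3 h, 0.52, 0.47 and 1.08 at 12 h, ending with 0.71, 0.19 and -0.39 at 72 h. Its arrays lay above all sham arrays at each time, and it was called at 12 h (3.50-fold, SE 0.304, adjusted p = 0.00234) and 72 h (2.44-fold, adjusted p = 0.0148). Gzme was called at 72 h but was above background on 1 array only, so no fold is given. Gzmd, Gzmf, Gzmg, Gzmk and Gzmn were not above background on any array. Without sham replicate 3, 4 genes were called higher at 3 h and 5 at 12 h, and without sham replicate 1, replicate 1 or replicate 3 at 3 h, 1 was called lower at 3 h. With slide as a block, 2 genes of this list were called higher at 72 h.

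**Figure D3:**
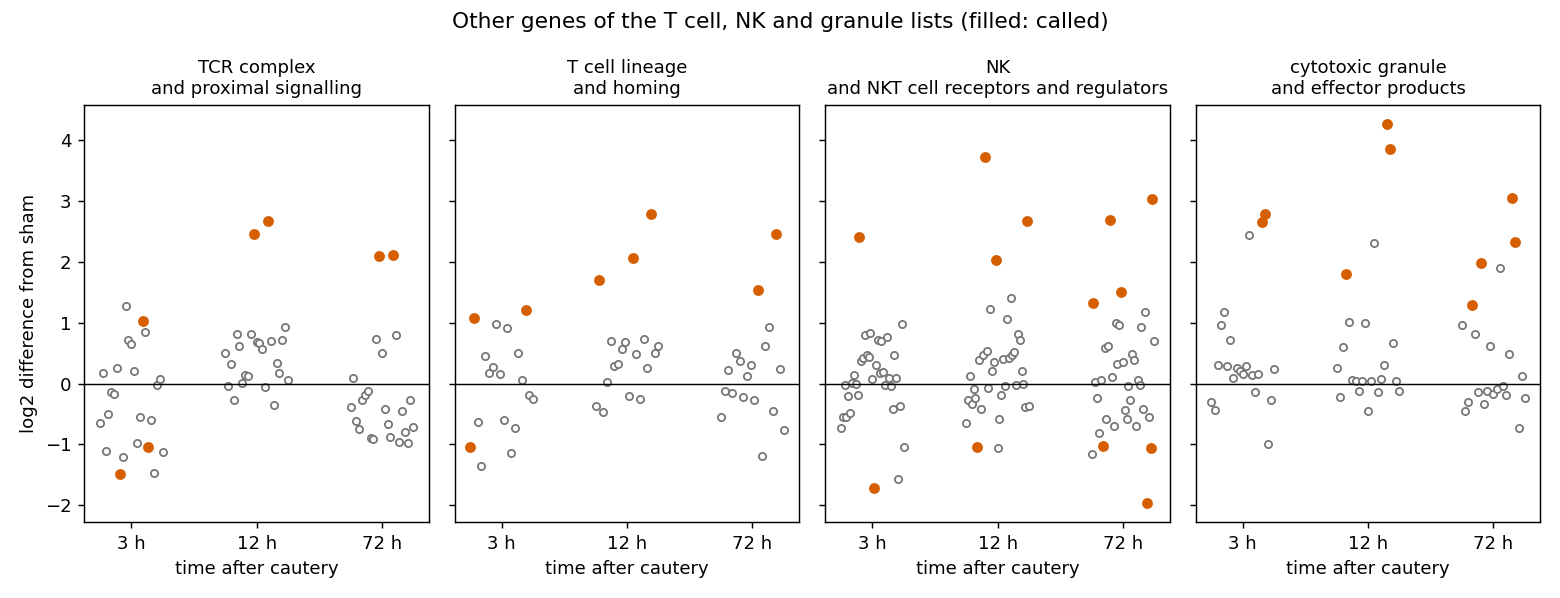
Each panel plots the log2 difference from sham (y axis) of the genes of 1 list at 3, 12 and 72 h after cautery (x axis); each point is 1 gene, spread sideways by name, and filled orange points were called. In each panel most points are open and lie around 0, and the called points of the granule list lie above 0.

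The level of each list was also summed per array on a linear scale where the array's 75th percentile is 1, so that its brightest genes weigh most. For the 10 genes the sum lay between 7.56 and 9.83 in sham, and each of the other groups overlapped it. The NK and NKT list summed to between 15.6 and 18.5 in sham, 16.0 and 22.1 at 3 h, 30.6 and 35.6 at 12 h, then 36.7 and 43.1 by 72 h. Tyrobp, the adaptor shared with myeloid cells, had mean log2 levels of 1.54, 2.52, 4.22 and 4.57 in these groups in order. The T cell lineage and homing list lay between 13.8 and 18.2 in sham and between 30.8 and 52.3 at 12 h, and the T cell receptor list between 18.9 and 23.9 and between 26.8 and 44.9. In the T cell lists the called genes rose most at 12 h. The mean log2 level of Klf2 went from 1.25 in sham to 3.31, and that of Fyb from 0.61 to 3.07. The other granule genes lay between 126 and 139 in sham and between 209.7 and 266 at 12 h. Lamp1, with mean log2 levels of 6.88 in sham and 6.74 at 12 h, carried most of the sham sum. Srgn had mean log2 levels of 2.54 and 6.81 and carried most of the rise, while the list's median difference at 12 h was 0.074.

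Markers of other cells in the same tissue moved as well. The summed level of 11 neutrophil markers lay between 81.3 and 92.5 in sham, 360 and 599 at 3 h, 825 and 865 at 12 h, then 351 and 642 by 72 h, and 7, 10 and 7 of the 11 were called higher. Csf3r, with a mean log2 level of 6.37 in sham, carried most of the sham sum and was not called at any time. S100a8 and S100a9 had mean log2 levels of -4.53 and -1.92 in sham and 6.27 and 8.14 at 3 h. For 10 macrophage markers the summed level lay between 43.6 and 46.5 in sham, 52.0 and 80.4 at 3 h, 110 and 136 at 12 h, then 143 and 158 by 72 h. Of these, 1, 4 and 8 were called higher and 2, 1 and 0 lower, with list medians of -0.026, -0.083 and 1.56. Cd14, a receptor of bacterial lipopolysaccharide, had mean log2 levels of 1.81 in sham, 5.18 at 3 h and 6.30 at 12 h and carried much of the sum at these times, while Cx3cr1, a chemokine receptor of resident macrophages, was 6.92-fold lower at 3 h (adjusted p = 9.34e-05). For 13 dendritic cell and mast cell markers the summed level lay between 119 and 151 in sham and between 95.5 and 134 on the other 9 arrays, with 1, 0 and 2 called higher. Siglech, with group means between 6.51 and 6.96 on the log2 scale, carried most of this sum. The 2 genes called at 72 h were Cpa3 (3.27-fold, adjusted p = 0.0268) and Tpsb2 (2.72-fold, adjusted p = 0.0162). Smooth muscle markers summed to between 548 and 583 in sham and between 173 and 361 on the other arrays. The 10 epithelial markers summed to between 1804 and 1988 in sham, 2360 and 2606 at 3 h, 1685 and 2093 at 12 h, then 957 and 1303 by 72 h, with 1, 0 and 0 called higher and 0, 1 and 2 lower. Ptprc, carried by all leukocytes, was 2.58-fold higher at 12 h (adjusted p = 0.0239) and was not called at 3 h (adjusted p = 0.985) or 72 h (adjusted p = 0.0827). The part of these cells in the values of the 10 genes and of Lcp2, Fyb, Klf2, Il18rap, Tyrobp, Srgn and Stx11 was not tested.

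The array with the lowest B cell level of its group was also the lowest for most of the 10 genes, while the array with the highest was so for most of them at 3 h alone. The summed level of 11 B cell and plasma cell markers was 101, 71.4 and 86.6 in sham, 59.4, 72.5 and 92.9 at 3 h, 87.0, 73.6 and 76.6 at 12 h, ending with 42.6, 77.1 and 75.6 at 72 h, with 0 of the 11 called at any time. The plasma cell gene Jchain carried most of this sum, with group means between 5.61 and 5.89 on the log2 scale, and the list's median differences from sham were -1.38, -0.13 and -1.23. In replicate 1 at 3 h, where the B cell level was lowest in its group, 8 of the 10 genes were also at their group's lowest, and in replicate 3, where it was highest, 9 of 10 were at their highest. At 72 h the B cell level was lowest in replicate 1, where 6 of 10 genes (Cd3e, Cd4, Cd8a, Zap70, Nkg7 and Gzmb) were lowest too. In sham and at 12 h it was lowest in replicate 2, where 7 of 10 genes were lowest. In the array with the highest B cell level, 3 of 10 genes were highest in sham, 3 at 12 h and 4 at 72 h. Markers of follicular and lymphoid tissue stroma likewise summed to between 15.1 and 63.2 with wide overlap of the groups. How much lymphoid follicle each piece of cecum held was not measured, and its part in these values was not tested.

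**Figure D4:**
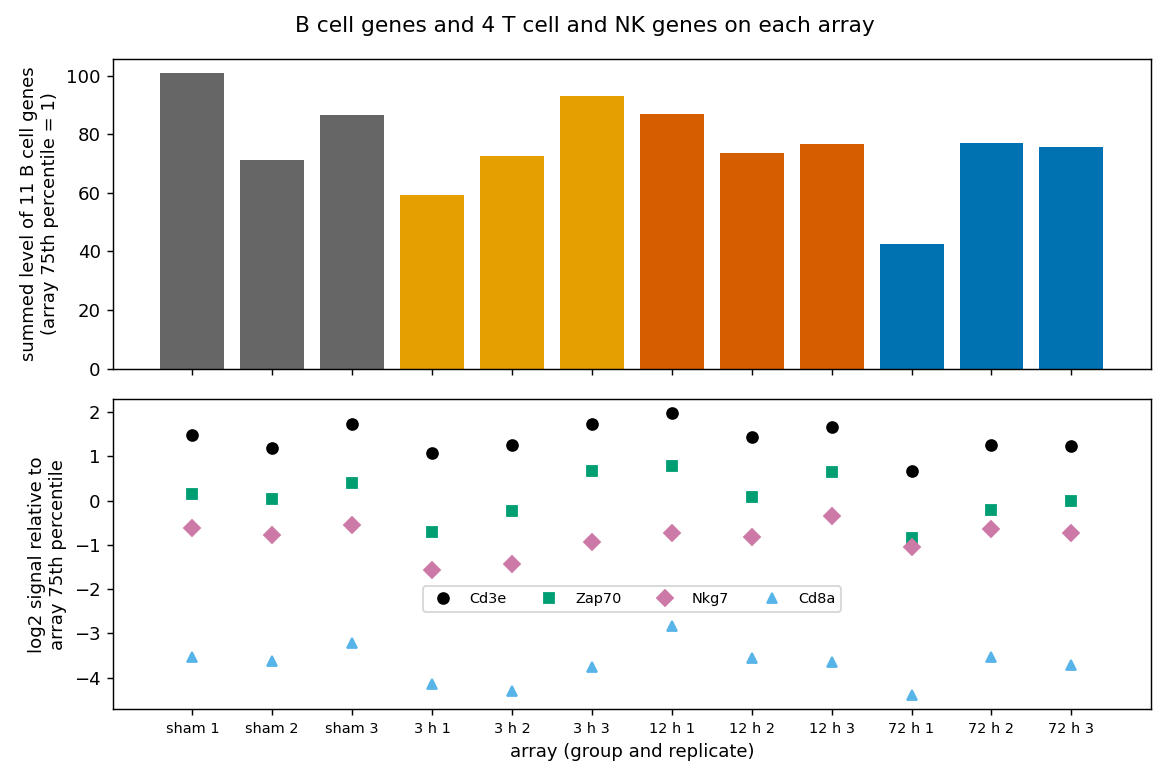
The upper panel plots the summed level of 11 B cell and plasma cell markers (y axis, linear, array 75th percentile = 1) as a bar for each array, coloured by group; the lower panel plots the log2 level of Cd3e, Zap70, Nkg7 and Cd8a on the same arrays. The lowest bar, 42.6 in replicate 1 at 72 h, stands above the lowest levels of Cd3e (0.67), Zap70 (-0.85) and Cd8a (-4.40).

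The genes most like Cd3e, Cd8a and Gzmb across the 12 arrays were taken by Pearson's r from 20791 genes well above background on all of them. The points share the groups, so r describes the groups and the replicates together. Nearest to Cd3e were Tcf7 (r = 0.959, Spearman's rho 0.93), a factor of T cells, Zap70 (r = 0.949, rho 0.923), and Pou2af1 (r = 0.936, rho 0.937), a coactivator of B cells. Nearest to Cd8a were Slain1 (r = 0.927, rho 0.671), a transcript named only by its identifier (r = 0.894, rho 0.671) and Lef1 (r = 0.885, rho 0.755), a factor of T cells. Nearest to Gzmb were Ctps (r = 0.985, rho 0.972), which makes CTP, Tfe3 (r = 0.982, rho 0.951), a transcription factor of lysosomal genes, and Ccl2 (r = 0.978, rho 0.895), a chemokine for monocytes. The 3 genes nearest to Gzmb had differences from sham of 1.77, 0.616 and 5.84 at 3 h, and those nearest to Cd3e of -0.248, -0.279 and -0.0704.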

How the data were processed

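Gene expression was measured in cecum tissue of 12 mice, 3 per group, grouped by the sample labels. Scanner files deposited by the authors hold a background-corrected intensity per spot (gProcessedSignal, linear, not normalized between arrays, probe coordinates in mm9). The authors also deposited log2 values normalized by the 75th percentile in GeneSpring, used here only as an alternative. Of 62976 spots per array, 3671 controls and 53 to 152 outlier spots were left out, and spots of 1 probe were averaged. The 75th percentile (a signal of 180 to 261) was subtracted after log2. A model of 4 group means over 12 arrays was fitted (R 4.3.3, limma 3.58.1) with Benjamini-Hochberg adjustment over 56605 probes. Since arrays carry no counts, their number limits the precision. The p-values measure the spread between mice, since the study describes the arrays as biological triplicates.

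The 10 genes and all lists were chosen with earlier results of these data known. Of the lists, 1 name each was not matched on the array for NK genes (Klra3), B cells (Ighm) and lymphoid stroma (Fdcsp). All 10 genes were named with every probe. Of each T cell, NK and granule list, up to 4 called genes per time point with the largest difference and well above background on all arrays of 1 group were named, together with members called against their list, the 3 genes nearest to Cd3e, Cd8a and Gzmb, Xist, Ddx3y and Ptprc. Genes at or below background on every array, Gzme, Cd1d1, genes named beside a summed level and the genes that differed between time points were named outside this rule after their values were seen. Some items that the rule selects are not reported here. A fold "at least" compares the bright group's mean with, per array, the higher of the dim probe and the lowest signal among probes well above background. Alternatives covered scaling, background correction, the authors' table, dim and outlier spots, slide, replicate number, the fit, the paired t-test, probe choice, the fold threshold and each array left out.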

Additional observations from a re-analysis of the deposited data

Results flagged for a closer look

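Among the T cell, NK and granule lists, several differences between consecutive time points were called by limma, which means that the effects at these times, taken against the same sham arrays, differed. None of the 10 genes was among them. The T cell receptor, T cell lineage, NK and granule lists held 23, 18, 35 and 21 genes. In this order 2, 2, 3 and 3 were called higher and 0, 0, 1 and 0 lower from 3 to 12 h, against 3.46% of all genes. From 12 to 72 h, 0, 0, 1 and 1 were called higher and 0, 1, 2 and 3 lower. Of all genes 7.52% were called there, so the later count lies near the background. From 3 to 12 h, the log2 difference was 1.64 for Lcp2, 1.74 for Fyb, 1.14 for Klf2, 1.2 for Klra9, 1.7 for Tyrobp, 1.32 for Il18rap, 1.61 for Srgn, 1.06 for Stx11 and 1.66 for Tnfsf10, the death ligand TRAIL. Over the same interval it was -1.06 for Eomes. From 12 to 72 h it was -1.83 for Ccr7, -2.17 for Slamf1 (above background on 1 of 3 arrays at 72 h), -1.04 for Il18rap, -1.21 for Srgn, -1.53 for Stx11 and -1.41 for Tnfsf10, and 1.6 for Cd1d1. The 72 h arrays lie on another slide than 2 of the 3 arrays at 12 h, so slide and time can be separated there only through 1 array.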

How the results depend on the processing

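Gzmb remained the only one of the 10 genes called at 3, 12 and 72 h under most alternatives. With normexp correction, which adds 50 to signals that for Gzmb were 9.92 to 89.1, its differences were 0.87, 0.80 and 0.49 (adjusted p = 0.000374, 0.000434 and 0.00247), and 0 of 10 genes were called at each time. With the methods' t-test, a paired test that the study's methods give for comparisons of 2 groups and not for the arrays, 0 of 10 genes passed at each time (adjusted p for Gzmb 0.15, 0.148 and 0.155), as did 0 of all genes. With a slide block, 0 were called at 72 h. With no fold change threshold, 2 were called at 3 h, 2 at 72 h and 1 from 12 to 72 h. From 3 to 12 h, 1 (Zbtb16) was called with a slide block and within slide 1, both of which take replicate 3 at 12 h out of this comparison. Leaving out each array gave 1 to 2 at 3 h (Ncr1 added), 1 to 1 at 12 h and at 72 h, 0 to 1 from 3 to 12 h and 0 to 0 from 12 to 72 h. Of 1390 member values under the alternatives, 7 lost a call, 7 gained one, 45 changed sign without a call and 0 reversed a call. Same-numbered arrays of different groups did not deviate together (r from -0.404 to 0.264), and with a replicate block 1 of 10 genes was called at each of the 3 times, as without it. The 75th percentile over probes above background moved the median of all genes by -0.13 at 72 h and normexp by -0.22. Dim probes (Ncr1, Cd8a, Klrb1c) limit what their differences can show.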
